A study of Mus musculus with 5 samples.

Results

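The interferon-induced GTPases described here are 10 of the 27998 genes counted in each library. They are 4 immunity-related GTPases (IRG), Iigp1, Igtp, Irgm1 and Irgm2, and 6 guanylate-binding proteins (GBP), Gbp2, Gbp3, Gbp4, Gbp5, Gbp6 and Gbp7. They were matched by gene symbol, and all 10 were found. Gbp6 stands under 2 Ensembl identifiers, of which ENSMUSG00000079362 held 0 UMIs and ENSMUSG00000104713 held 221, and the counts were summed. The genes were chosen by their UMI counts per library and cell class, with earlier results on these libraries known, above all on 4NQO against vehicle. The values of that comparison are therefore given as a description, and no test of it is read. The comparisons of genotype and of the tumor use the same BPK 4NQO libraries, so their adjusted p-values are given beside the values of these libraries and are no independent evidence on the list.

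Gene expression in single cells was measured by droplet sequencing of mouse mammary glands and of a mammary tumor, in 5 libraries. All mice carried Krt14cre, which drives Cre in keratin 14-expressing epithelium, together with Trp53 flox/flox. BPK mice also carried Brca1 wt/flox, and PK mice were Brca1 wt/wt. The BPK tumor (1 library) had formed after 24 intraductal injections of 4NQO, a carcinogen that leaves bulky adducts on DNA. BPK 4NQO glands (2 libraries) and PK 4NQO glands (1) had received 12 such injections, and BPK vehicle glands (1) had received 12 injections of PBS/PEG. The labels give no age, and they do not say whether the BPK 4NQO libraries came from separate animals, so any p-value measures the spread between these libraries, which may be technical.

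Interferon gamma acts through its receptor and the Janus kinases on genes with GAS elements (gamma-activated sites), while type I and type III interferons act on genes with ISRE elements (interferon-stimulated response elements). In mouse cells IRG and GBP proteins are made in response to these signals and gather on the vacuoles of intracellular pathogens such as Toxoplasma and Chlamydia. Iigp1, also called Irga6, is an effector IRG that coats such vacuoles. Igtp (Irgm3), Irgm1 and Irgm2 are regulatory IRGs that sit on the membranes of the cell and keep effector IRGs and GBPs off them. GBPs are larger, dynamin-like GTPases that follow IRGs to vacuoles and promote inflammasome signaling.

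The start regions of 7 of the 10 members were taken from the RefSeq promoter table (GRCm38.p6). This table gives 250 bases before and 50 after each annotated transcript start. No window of Iigp1, Gbp4 or Gbp6 was examined, so nothing is said about motifs in these genes. A stretch of 60 bases from each is printed because all 7 hold a match to the ISRE-type motif there. Each stretch is read 5′ to 3′ on the strand of its gene, and capitals mark matches to the ISRE-type motif GAAANNGAAA or, in Igtp and Irgm2, also to the GAS-type motif TTCNNNGAA. Both motifs were searched on both strands, and a match on the other strand reads as TTTCNNTTTC.
Igtp, chr11:58199497-58199556, plus strand: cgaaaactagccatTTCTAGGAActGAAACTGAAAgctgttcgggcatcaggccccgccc
Irgm2, chr11:58214888-58214947, plus strand: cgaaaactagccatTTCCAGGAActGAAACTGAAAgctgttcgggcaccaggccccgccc
Irgm1, chr11:48871413-48871472, minus strand: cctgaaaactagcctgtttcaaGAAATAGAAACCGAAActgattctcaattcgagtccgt
Gbp2, chr3:142620579-142620638, plus strand: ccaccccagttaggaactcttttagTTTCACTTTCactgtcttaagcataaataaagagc
Gbp3, chr3:142559977-142560036, plus strand: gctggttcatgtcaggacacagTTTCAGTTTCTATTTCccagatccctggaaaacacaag
Gbp5, chr3:142496744-142496803, plus strand: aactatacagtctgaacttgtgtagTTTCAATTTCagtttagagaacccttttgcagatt
Gbp7, chr3:142530258-142530317, plus strand: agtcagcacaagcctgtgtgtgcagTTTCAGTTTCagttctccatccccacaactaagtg
The IRG matches lie on the strand of the gene and the GBP matches on the opposite strand. In Irgm1 and Gbp3 2 matches overlap within the capitals.

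An ISRE-type match was present in all 7 members examined, and in 7 of their 8 windows, since the table gives Gbp3 a second window without one. Of all 32851 windows of the same length in the table, 3.443% held such a match. GAS-type matches were present in 4 members, Igtp, Irgm2, Gbp5 and Gbp7, and in 8.298% of all windows. The windows of Igtp and Irgm2 were 90.4% identical over 270 aligned bases. These are matches of letters, and no measurement of binding at these sites was analysed.

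**Figure D1:**
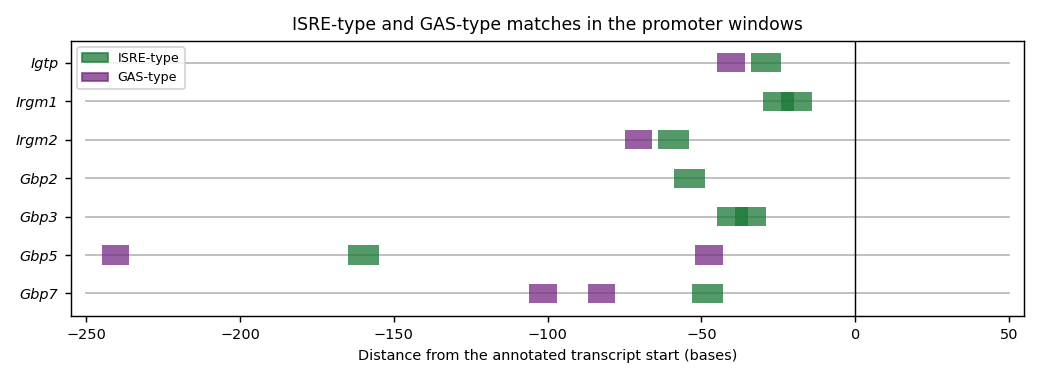
Positions of ISRE-type (green) and GAS-type (purple) matches in the first promoter window of 7 members, by distance from the annotated transcript start in bases. The ISRE-type matches lie between 165 and 15 bases before the start, and 4 of the 7 genes also hold a GAS-type match.

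In the mm10 annotation GENCODE M21 the members form 4 groups. Gbp5 (ENSMUSG00000105504, chromosome 3, 142493978 to 142522344), Gbp7 (ENSMUSG00000040253, 142530342 to 142550149), Gbp3 (ENSMUSG00000028268, 142560026 to 142573209) and Gbp2 (ENSMUSG00000028270, 142620602 to 142638008) lie in this order on the plus strand. Gbp4 (ENSMUSG00000079363, chromosome 5, 105115767 to 105139586) and Gbp6 (105270702 to 105293698) lie on the minus strand of chromosome 5, where Gbp4 overlaps Gbp8 and Gbp9. Igtp (ENSMUSG00000078853, 58199556 to 58207591) lies within the span of Irgm2 (ENSMUSG00000069874, 58199618 to 58222782) apart from its first bases on chromosome 11, on the same strand, and Irgm1 (ENSMUSG00000046879, 48861968 to 48871683) lies elsewhere on that chromosome. Iigp1 (ENSMUSG00000054072) lies on chromosome 18, at 60376027 to 60392634. Because of these overlaps and of close copies within the GBP family, the split of reads between Igtp and Irgm2, and among Gbp4, Gbp6 and their neighbors, is uncertain.

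Depth was 58754764 UMIs in the BPK tumor, 46938491 and 27383717 in BPK 4NQO replicates 1 and 2, 35281954 in PK 4NQO and 64169843 in BPK vehicle. Of 34526 deposited barcodes, 31457 were kept, and the median deposited barcode held 15195.5 UMIs in the tumor, 4178 and 2523 in BPK 4NQO, 3231 in PK 4NQO and 4573 in BPK vehicle. BPK 4NQO replicate 2 shared 1 to 2 barcodes with each other library, against 26 to 107 between the other pairs. Its barcodes may thus come from another list than the v2 chemistry that the labels give, which was not tested, and the spread between it and replicate 1 sets every SE and p-value below. Marker gates placed 28363 cells in a class, each called by the name of its marker list, and epithelial cells that met no subclass are called unclassed epithelial cells or epithelial cells without a subclass. T cells numbered 14 in the tumor, 108 and 309 in BPK 4NQO, 40 in PK 4NQO and 15 in BPK vehicle. Over all kept cells Trp53 stood at 14.1 CPM in the tumor, 45.3 and 27.3 CPM in BPK 4NQO, 44.1 CPM in PK 4NQO and 48.7 CPM in BPK vehicle, and Brca1 at 2.23, 1.05, 4.72, 1.07 and 1.65 CPM in the same order. The labels do not say which exons the floxed alleles lose, so these 3′ tags do not check the deletions.

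Over all kept cells every member was highest in the BPK 4NQO libraries. Iigp1 stood at 10.7 CPM in the tumor, 122 and 219.9 CPM in BPK 4NQO replicates 1 and 2, 66.6 CPM in PK 4NQO and 26.6 CPM in BPK vehicle. Gbp2 stood at 17.9 CPM in the tumor, 61.3 and 103 CPM in BPK 4NQO, 28.2 CPM in PK 4NQO and 20.5 CPM in BPK vehicle. For each of the 10 genes PK 4NQO lay below both BPK 4NQO libraries and above BPK vehicle. Gbp5, which promotes assembly of the NLRP3 inflammasome in mouse macrophages, was spread most widely between the BPK 4NQO replicates, with 3.45 and 34.9 CPM, against 1.13 CPM in the tumor, 2.11 CPM in PK 4NQO and 0.876 CPM in BPK vehicle. Gbp6 was counted least, with 10 UMIs in the tumor, 53 and 134 in BPK 4NQO, 16 in PK 4NQO and 8 in BPK vehicle. In sums over all cells, more cells of a high class and a higher level per cell cannot be told apart, so the members are described within classes below.

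**Figure D2:**
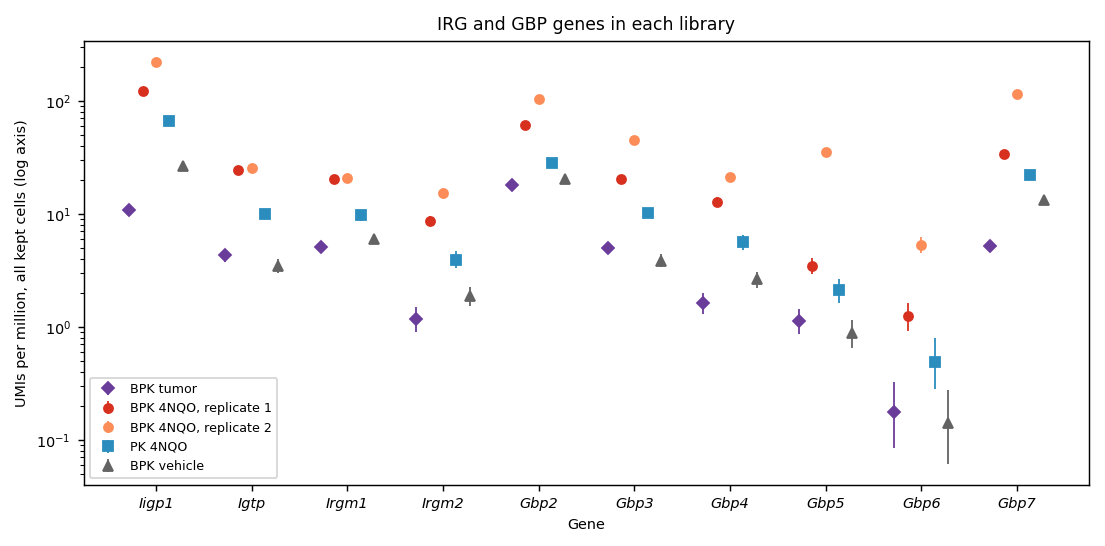
Level of each member over all kept cells, in CPM on a log axis, with 1 point per library and exact Poisson 95% intervals that cover counting error only. Both BPK 4NQO points lie above the points of the other 3 libraries for every gene, and the replicates are farthest apart for Gbp5, at 3.45 and 34.9 CPM.

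Endothelial cells were the class in which the family was most abundant. Of the 50 pairs of a member and a library, the highest class was endothelial in 30, fibroblast in 8, T cells in 5, basal in 2 and macrophage in 2. In BPK 4NQO glands the 10 members together reached 1392 ± 363 CPM in endothelial cells (SD, n = 2), and that range did not overlap the next class, fibroblasts, at 767 ± 22.9 CPM (SD, n = 2). Fibroblasts did not differ beyond their spread from pericytes, at 733 ± 97.2 CPM, nor pericytes from basal cells, at 652 ± 349 CPM (SD, n = 2 each). Luminal alveolar cells stood last, at 264 ± 27.7 CPM, with a range that overlapped that of hormone-sensing luminal cells at 269.6 ± 204 CPM (SD, n = 2 each). BPK vehicle endothelium already held 574 CPM of the 10 members, above the 41.0 CPM in basal cells of the same library.

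**Figure D3:**
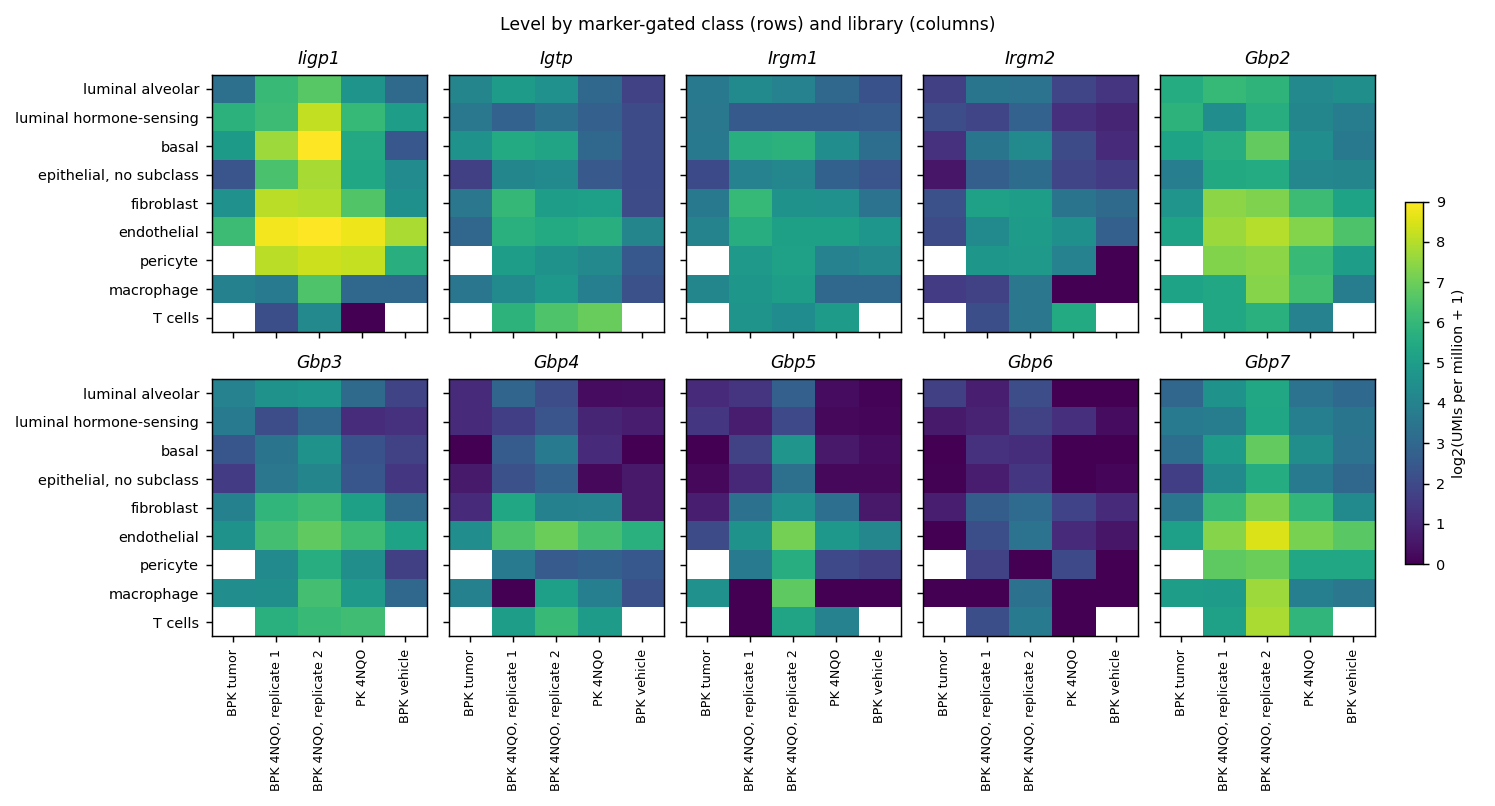
Level of each member in 9 marker-gated classes (rows) and 5 libraries (columns), as log2(CPM + 1), with white where a class held under 30 cells. The endothelial row is bright in every gland library for Iigp1, Gbp2 and Gbp7, and the basal row of Iigp1 is bright in the BPK 4NQO columns, at 204 and 499 CPM, against 4.38 CPM in BPK vehicle.

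Iigp1, the effector IRG, was high in endothelium in every gland library. In endothelial cells it stood at 71.5 CPM in the tumor (exact Poisson 95% interval 59.995 to 84.5), 461 CPM (438 to 486) and 535 CPM (498 to 575) in BPK 4NQO, 434 CPM (403 to 466) in PK 4NQO and 232 CPM (213 to 253) in BPK vehicle. The 3 libraries from 4NQO glands lay close together, vehicle lay below them and the tumor lowest. In basal cells it stood at 28.7 CPM in the tumor (17.5 to 44.4), 204 CPM (186 to 225) and 499 CPM (451 to 550.3) in BPK 4NQO, 41.8 CPM (33.0 to 52.2) in PK 4NQO and 4.38 CPM (2.63 to 6.83) in BPK vehicle. The basal range over libraries was therefore far wider than the endothelial one, and BPK 4NQO replicate 2 reached the endothelial level. Intervals cover counting error only.

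Order of the classes for Iigp1 in BPK 4NQO glands was endothelial (498 ± 52.5 CPM), basal (352 ± 208), pericyte (295 ± 34.3), fibroblast (257 ± 12.5) and hormone-sensing luminal (181 ± 156), followed by epithelial cells without a subclass (156 ± 101), luminal alveolar (83.5 ± 24.5), macrophage (51.2 ± 55.7) and T cells (10.7 ± 10.2), each as mean and SD of n = 2. Pericytes and fibroblasts were the only neighbors in this order of 9 classes whose ranges did not overlap. T cells were nearly without Iigp1, with 1 and 10 UMIs in BPK 4NQO and 0 UMIs in PK 4NQO, where a count of 0 allows up to 44.6 CPM. At 1500 UMIs per cell, 0 of 53 and 2 of 135 T cells of BPK 4NQO glands held an Iigp1 UMI, or 0.0% and 1.48%, against 44.6% of 811 and 40.6% of 318 endothelial cells. Before thinning the median depths were 1471 and 1386 UMIs in these T cells and 2447 and 1927 UMIs in the endothelial cells. The T cell shares lay far below the endothelial shares, and the part of free RNA in them was not tested.

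Among the regulatory IRGs the T cell gate was high for Igtp. In T cells Igtp stood at 55.2 and 91.2 CPM in BPK 4NQO and at 119 CPM in PK 4NQO, from 16, 51 and 8 UMIs. In endothelial cells it stood at 6.78 CPM in the tumor, 52.1 and 43.9 CPM in BPK 4NQO, 49.4 CPM in PK 4NQO and 16.0 CPM in BPK vehicle. Igtp was thus at least as high in T cells as in endothelium, where Iigp1 was nearly absent from T cells. Irgm1 was highest in fibroblasts of BPK 4NQO replicate 1, at 64.4 CPM, and in basal cells of replicate 2, at 53.6 CPM. Irgm2 was highest in fibroblasts of both, at 34.2 and 31.4 CPM.

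The GBPs of chromosome 3 were high in endothelial cells. Gbp2, a lipid-anchored GBP, stood in endothelium at 36.5 CPM in the tumor, 197 and 257 CPM in BPK 4NQO, 161 CPM in PK 4NQO and 88.6 CPM in BPK vehicle. Gbp7 stood there at 32.9 CPM in the tumor, 164 and 367 CPM in BPK 4NQO, 145 CPM in PK 4NQO and 102 CPM in BPK vehicle. Gbp3 stood there at 23.5 CPM in the tumor, 78.9 and 109 CPM in BPK 4NQO, 70.6 CPM in PK 4NQO and 36.5 CPM in BPK vehicle. In each of these 3 genes the tumor was lowest, vehicle next and BPK 4NQO highest. Gbp5 differed in that 1 library set its level: it stood at 3.13 CPM in the tumor, 23.3 and 138 CPM in BPK 4NQO, 27.0 CPM in PK 4NQO and 16.9 CPM in BPK vehicle. Macrophages of BPK 4NQO replicate 2 held 107 CPM of Gbp5, whereas macrophages of replicate 1 held 0 UMIs, which allows up to 7.07 CPM.

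Gbp4, on chromosome 5, was far higher in endothelial cells than in the other classes of vehicle glands. It stood in endothelium at 20.3 CPM in the tumor, 89.5 and 124 CPM in BPK 4NQO, 79.3 CPM in PK 4NQO and 51.2 CPM in BPK vehicle. The next highest class of BPK vehicle with at least 30 cells was pericytes, at 4.51 CPM from 2 UMIs. Gbp6 stood in endothelium at 0 UMIs in the tumor, which allows up to 1.56 CPM, at 3.52 and 9.76 CPM in BPK 4NQO, 1.15 CPM in PK 4NQO and 0.445 CPM in BPK vehicle. These last 2 values rest on 2 and 1 UMIs.

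In BPK 4NQO against BPK vehicle the members were higher in nearly every class, and the difference was smallest in endothelial cells, where the vehicle level was highest. The summed level of the 10 genes stood in basal cells at 405 and 898 CPM in BPK 4NQO, against 41.0 CPM in BPK vehicle, which is 15.9 times for the mean. The same ratio was 7.17 in fibroblasts, 5.61 in luminal alveolar cells, 4.00 in hormone-sensing luminal cells and 2.42 in endothelial cells. Differences between classes were not tested. Of 80 pairs of a member and a class 74 passed the filter on low counts, and 73 of these had a log2 fold change above 0. In 4 of the 74 pairs BPK vehicle held 0 UMIs, and in 14 it held 1 to 3. Such a pair could pass the filter through BPK 4NQO alone, so its direction carries no weight. The pairs left out were Gbp6 in basal cells, epithelial cells without a subclass, pericytes and macrophages, Gbp4 in pericytes and Irgm2 in macrophages. Both BPK 4NQO libraries lay above vehicle in 71 of the 74 pairs, where 38.6% of all genes tested did so in luminal alveolar, 28.8% in hormone-sensing luminal, 34.7% in basal, 35.3% in unclassed epithelial, 38.5% in fibroblast, 27.8% in endothelial, 31.7% in pericyte and 32.1% in macrophage sums. All 3 comparisons share the BPK 4NQO libraries.

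Calls at an adjusted p under 0.05 (edgeR's quasi-likelihood test with Benjamini-Hochberg adjustment over all genes) numbered 7 in this comparison, all higher in 4NQO. In luminal alveolar cells 3 of 10 members were called higher, against 0.37% of all genes. Basal cells had 2 of 9, against 0.356% of all genes. Fibroblasts had 1 of 10, against 0.235%, and epithelial cells without a subclass 1 of 9, against 0.532%. None was called in endothelial cells (0.237% of all genes), hormone-sensing luminal cells (0.144%), pericytes (0.0%) or macrophages (0.0%). Since the list was chosen with this comparison in view, nothing is read from these shares. With 48 of the 74 pairs at an unadjusted p under 0.05 and 5 called by DESeq2, the count depends on the tool. The median log2 fold change of the members that passed the filter was 3.37 in basal, 3.15 in luminal alveolar, 2.65 in fibroblast, 1.83 in hormone-sensing luminal and 1.32 in endothelial cells, where the medians of all genes lay between 0.01 and 0.07.

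Iigp1 in basal cells stood 6.08 log2 units above vehicle (SE 1.12), from the values given above. Igtp in basal cells stood at 44.0 and 37.4 CPM in BPK 4NQO, against 3.22 CPM in BPK vehicle, a log2 fold change of 3.51 (SE 0.83). Both BPK 4NQO libraries lay above vehicle for each. Gbp4 in basal cells was found in 11 and 10 UMIs in BPK 4NQO and in 0 in BPK vehicle. Set against a floor of 3 counts in BPK vehicle the ratio was 12.8, which leaves out counting error in BPK 4NQO. Gbp5 rested on 5 and 20 UMIs in BPK 4NQO and 1 in BPK vehicle, a ratio of 59.3 with a counting interval from 10.6 to 2342. Both pairs could pass the filter through BPK 4NQO alone, so their direction carries no weight. The macrophage markers summed in the basal gate to 12.3 and 72.3 CPM in BPK 4NQO (4 and 6 of 6 markers found, with Adgre1 and Csf1r at 0 in replicate 1), against 3.46 CPM in BPK vehicle (5 of 6, with Mrc1 at 0). The T cell markers summed to 0.947 and 1.25 CPM in BPK 4NQO (2 and 1 of 3 found), against 0 of 3 found in BPK vehicle. The part of such RNA in the basal values was not tested. In the same libraries macrophages held 11.8 and 90.6 CPM of Iigp1 and T cells 3.45 and 17.9 CPM. Endothelial cells held 461 and 535 CPM, pericytes 270 and 319 CPM and fibroblasts 266 and 248 CPM. Marker sums of these last classes in the basal gate are not given here, and the part of their RNA was not tested either.

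Luminal alveolar cells are the milk-producing lineage. Iigp1 in luminal alveolar cells stood at 66.2 and 101 CPM in BPK 4NQO, against 7.65 CPM in BPK vehicle, a log2 fold change of 3.25 (SE 0.77). Igtp stood at 29.98 and 22.4 CPM in BPK 4NQO, against 2.43 CPM in BPK vehicle, a log2 fold change of 3.28 (SE 0.70). Gbp3 stood at 23.5 and 25.5 CPM in BPK 4NQO, against 2.58 CPM in BPK vehicle, a log2 fold change of 3.06 (SE 0.69). The replicates lay close together in these 3 genes and vehicle lay apart from them. The remaining call in an epithelial gate was Gbp3 in epithelial cells without a subclass, at 10.99 and 16.0 CPM in BPK 4NQO, against 1.68 CPM in BPK vehicle. In hormone-sensing luminal cells the replicates differed for Iigp1, at 70.9 and 291 CPM in BPK 4NQO, against 32.3 CPM in BPK vehicle. Irgm1 stood there at 4.87 and 4.86 CPM in BPK 4NQO, against 5.12 CPM in BPK vehicle.

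Among stromal cells Gbp4 in fibroblasts was the 1 call, and DESeq2 did not make it. It stood at 40.8 and 14.7 CPM in BPK 4NQO, against 0.549 CPM from 1 UMI in BPK vehicle, a ratio of 50.5 with a counting interval from 9.06 to 1995. Iigp1 in fibroblasts stood at 266 and 248 CPM in BPK 4NQO, against 22.0 CPM in BPK vehicle, a log2 fold change of 3.38 (SE 1.14). In endothelial cells the log2 fold changes ran from 0.66 for Irgm1 (SE 0.73) to 2.15 for Gbp5 (SE 0.83), apart from Gbp6, whose vehicle value rests on 1 UMI. Iigp1 in endothelial cells differed by 1.06 (SE 0.95). Marker sums of other classes also moved in replicate 2: in its endothelial gate the macrophage markers summed to 91.3 CPM and the fibroblast markers to 511 CPM, against 9.27 and 108 CPM in replicate 1 and 9.80 and 120.2 CPM in BPK vehicle. Their part in the values of replicate 2 was not tested.

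**Figure D4:**
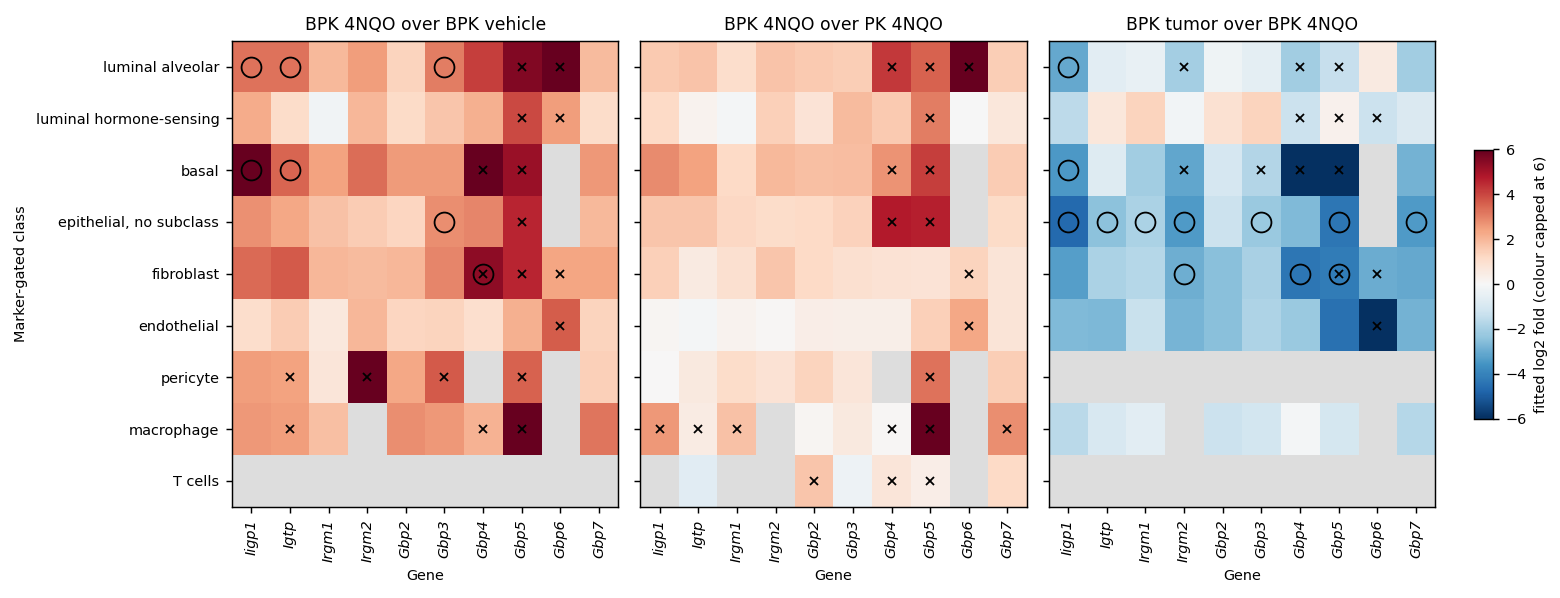
Fitted log2 fold change of each member (columns) in each class (rows) for the 3 comparisons, with red for higher and blue for lower in the group named first. Circles mark an adjusted p under 0.05, crosses mark pairs whose lower group holds at most 3 UMIs, so that the color is no measure of size, and gray marks pairs not tested. The left panel holds 7 circles, the middle 0 and the right 12.

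Brca1 genotype was compared in BPK 4NQO against PK 4NQO glands, which asks whether 1 floxed Brca1 allele goes with other levels under the same carcinogen. PK 4NQO is 1 library, and it alone was counted with Cell Ranger 3.0.2. Genotype therefore cannot be told apart from animal, library or software version. The members stood higher in BPK in most classes, but no pair passed the test. Of 90 pairs of a member and a class 80 passed the filter, 75 had a log2 fold change above 0 and 62 had both BPK libraries above PK, where 40.4% of all genes did so in luminal alveolar, 34.6% in hormone-sensing luminal, 35.3% in basal, 39.3% in unclassed epithelial, 31.3% in fibroblast, 32.2% in endothelial, 29.4% in pericyte, 41.8% in macrophage and 36.0% in T cell sums. In 2 of the 80 pairs the lower group held 0 UMIs, and in 18 it held 1 to 3. Such a pair could pass the filter through the higher group alone, so its direction carries no weight. None of the 80 was called by edgeR's quasi-likelihood test, while 20 had an unadjusted p under 0.05, all higher in BPK, and DESeq2 called 0 with 16 at that level. Of all genes, 0.239% were called higher in luminal alveolar, 0.221% in basal, 0.128% in hormone-sensing luminal, 0.383% in unclassed epithelial, 0.0949% in endothelial, 0.00942% in fibroblast, 0.0155% in pericyte, 0.0% in macrophage and 0.0208% in T cell sums.

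The median log2 fold change by genotype over the members that passed the filter was 1.92 in basal, 1.65 in luminal alveolar, 1.00 in hormone-sensing luminal, 0.96 in fibroblast and 0.34 in endothelial cells. Iigp1 in basal cells stood at 204 and 499 CPM in BPK 4NQO, against 41.8 CPM in PK 4NQO, a difference of 2.85 on the log2 scale (SE 0.93, adjusted p = 0.53). Igtp in basal cells stood at 44.0 and 37.4 CPM in BPK 4NQO, against 7.05 CPM in PK 4NQO, a difference of 2.39 on the log2 scale (SE 0.80, adjusted p = 0.582). Both BPK libraries lay above PK, and neither difference passed the threshold. The smallest adjusted p belonged to Gbp4 in luminal alveolar cells (0.091), with 6.69 and 3.35 CPM in BPK 4NQO, against 0.239 CPM from 3 UMIs in PK 4NQO, and this pair was called when only the compared libraries were fitted. In endothelial cells Iigp1 differed by 0.12 (SE 0.91) and Irgm2 by 0.06 (SE 0.69). Irgm2 stood there at 18.2 and 30.7 CPM in BPK 4NQO, against 21.8 CPM in PK 4NQO, so its groups overlapped. Summed over the 10 members, BPK 4NQO was 5.51 times PK 4NQO in basal cells and 1.36 times in endothelial cells, and the difference between these classes was not tested.

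Tumor cells and the cells around them were compared with BPK 4NQO glands. Most members stood lower in the tumor, and in hormone-sensing luminal cells the members went both ways. Of 70 pairs 66 passed the filter, 60 had a log2 fold change below 0, and 55 had the tumor below both BPK 4NQO libraries, where 46.2% of all genes did so in luminal alveolar, 41.1% in hormone-sensing luminal, 39.3% in basal, 52.7% in unclassed epithelial, 45.3% in fibroblast, 43.3% in endothelial and 32.7% in macrophage sums. The pairs left out were Gbp6 in basal cells, epithelial cells without a subclass and macrophages, and Irgm2 in macrophages. In 3 of the 66 pairs the lower group held 0 UMIs, and in 10 it held 1 to 3. Such a pair could pass the filter through the higher group alone, so its direction carries no weight. Calls numbered 12, all lower in the tumor, and since the members were chosen with the levels of the BPK 4NQO libraries known, nothing is read from the following shares. Epithelial cells without a subclass had 7 of 9 members called lower, against 10.9% of all genes. Fibroblasts had 3 of 10, against 1.07%. Luminal alveolar cells had 1 of 10, against 0.395%, and basal cells 1 of 9, against 0.207%.

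The gate of epithelial cells without a subclass held different cells in the tumor and in the glands. Its 1125 tumor cells summed to 18800 CPM of basal markers and 623 CPM of luminal alveolar markers, against 956 and 1622 CPM of basal markers and 7016 and 6871 CPM of luminal alveolar markers in BPK 4NQO. In this gate Iigp1 stood at 4.21 CPM in the tumor, against 84.0 and 227 CPM in BPK 4NQO, a difference of -4.68 on the log2 scale (SE 0.96, adjusted p = 2.7e-05, edgeR). Gbp7 stood at 2.17 CPM in the tumor, against 18.6 and 46.5 CPM in BPK 4NQO, a difference of -3.38 on the log2 scale (SE 0.73, adjusted p = 8.53e-05). Both stood below either BPK 4NQO library. Irgm2, Igtp, Gbp5, Gbp3 and Irgm1 were also called lower, with adjusted p-values from 0.00292 to 0.0252, and DESeq2 did not call Gbp5, Gbp3 or Irgm1. In edgeR's test Gbp2 (log2 fold change -1.28, SE 0.68) and Gbp4 (-2.63, SE 1.08) did not pass. In the separate keratinocyte gate, which held 137 tumor cells, Iigp1 stood at 1.91 CPM.

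Basal cells, with only 45 in the tumor, held 28.7 CPM of Iigp1 there, against 204 and 499 CPM in BPK 4NQO, a difference of -3.46 on the log2 scale (SE 0.96, adjusted p = 0.0303). Luminal alveolar cells, with 48 in the tumor, held 9.12 CPM of Iigp1 from 8 UMIs, against 66.2 and 101 CPM, a difference of -3.05 on the log2 scale (SE 0.85, adjusted p = 0.0342). Iigp1 was called lower in both gates. The basal markers in the luminal alveolar gate summed to 1096 CPM in the tumor, against 95.4 and 208 CPM in BPK 4NQO, and their part in the result was not tested. DESeq2 gave the basal call alone. Under the stricter gate the luminal alveolar call was lost (adjusted p = 0.134), and basal cells, with 14 in the tumor, were too few to test.

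Fibroblasts of the tumor held less Gbp4, Gbp5 and Irgm2. Gbp4 in fibroblasts stood at 1.15 CPM in the tumor, against 40.8 and 14.7 CPM in BPK 4NQO, a difference of -4.33 on the log2 scale (SE 1.02, adjusted p = 0.00283). Gbp5 stood at 0.69 CPM from 3 UMIs in the tumor, against 9.20 and 22.4 CPM in BPK 4NQO, with an adjusted p of 0.015. Irgm2 stood at 3.68 CPM in the tumor, against 34.2 and 31.4 CPM in BPK 4NQO, a difference of -2.91 on the log2 scale (SE 0.89, adjusted p = 0.0493). All 3 stood below both BPK 4NQO libraries, and DESeq2 called none of them. Basal markers in the fibroblast gate summed to 2286 CPM in the tumor, against 179 and 164 CPM in BPK 4NQO, and the part of this RNA was not tested.

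Endothelial cells of the tumor stood lower for all 10 members, but no gene of 10799, or 0.0%, was called there by edgeR, while 1227 had an unadjusted p under 0.05, 9 of the 10 members among them. DESeq2 called 161 genes, including Iigp1, Gbp2, Gbp5 and Gbp7. Summed over the 10 members the level was 213 CPM in tumor endothelium, against 1135 and 1648 CPM in BPK 4NQO endothelium, so the groups did not overlap. Macrophages had 0 calls among 8 members tested, by edgeR and by DESeq2, and none at an unadjusted p under 0.05, where edgeR called 0.0% of all genes lower. Hormone-sensing luminal cells had 0 calls as well by both tools, against 0.22% of all genes, and none at an unadjusted p under 0.05, and their median log2 fold change over the members was 0.03. Iigp1 in these cells stood at 53.5 CPM in the tumor, against 70.9 and 291 CPM in BPK 4NQO, and Gbp4, Gbp6 and Gbp7 also lay below both BPK 4NQO libraries. The summed level of the 10 members was 0.603 times the BPK 4NQO mean. Gbp2 stood at 55.7 CPM in the tumor, against 20.2 and 47.2 CPM in BPK 4NQO, and Gbp3, Irgm1 and Igtp also lay above both. The keratinocyte markers in this gate summed to 1698 CPM in the tumor, against 529 and 737 CPM in BPK 4NQO, and their part in the result was not tested.

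In basal, luminal alveolar, fibroblast and pericyte cells of BPK 4NQO glands, cells with an IRG transcript held a GBP transcript more often than cells without one, whereas in endothelial and hormone-sensing luminal cells the shares had overlapping intervals. Cells were thinned to 1500 UMIs, and cells with fewer were left out. Of basal cells with an IRG UMI, 27.3% of 150 and 41.4% of 70 also held a GBP UMI in the BPK 4NQO libraries, against 7.07% of 467 and 12.4% of 153 basal cells without one. The exact binomial 95% intervals of these shares, 20.4 to 35.2% against 4.91 to 9.78% and 29.8 to 53.8% against 7.64 to 18.7%, did not overlap in either library. In BPK vehicle 0 of 22 basal cells with an IRG UMI held a GBP UMI (0.0 to 15.4%), against 3.66% of 1066 without one (2.61 to 4.97%), so these intervals overlapped. Unclassed epithelial cells had intervals apart in both BPK 4NQO libraries and in BPK vehicle, with 13.95% of 43 there against 2.68% of 1044. In PK 4NQO the basal shares were 23.5% of 34 against 5.08% of 571, with intervals apart. Luminal alveolar shares there were 5.71% of 105 against 4.95% of 1596, with overlapping intervals. The shares in BPK 4NQO were 51.0% and 53.6% in fibroblasts with an IRG UMI, against 22.9% and 33.8% without one. For luminal alveolar cells they were 29.4% and 35.2% with an IRG UMI, against 12.7% and 12.1% without one, and for pericytes 19 of 29 and 22 of 42 cells, against 17 of 99 and 26 of 130. Intervals did not overlap in either library for these 3 classes. Of hormone-sensing luminal cells with an IRG UMI, 7.27% of 165 and 9.74% of 195 held a GBP UMI in BPK 4NQO, against 3.84% of 1329 and 13.3% of 429 without one, with overlapping intervals. Of endothelial cells with an IRG UMI, 51.7% of 424 and 68.9% of 148 held a GBP UMI in BPK 4NQO, against 51.4% of 387 and 61.2% of 170 without one, and these intervals overlapped. In tumor endothelium the shares were 37.5% of 16 cells against 12.0% of 133, and the intervals overlapped as well. Cells of 1 library are not replicates, and the difference between classes was not tested.

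**Figure D5:**
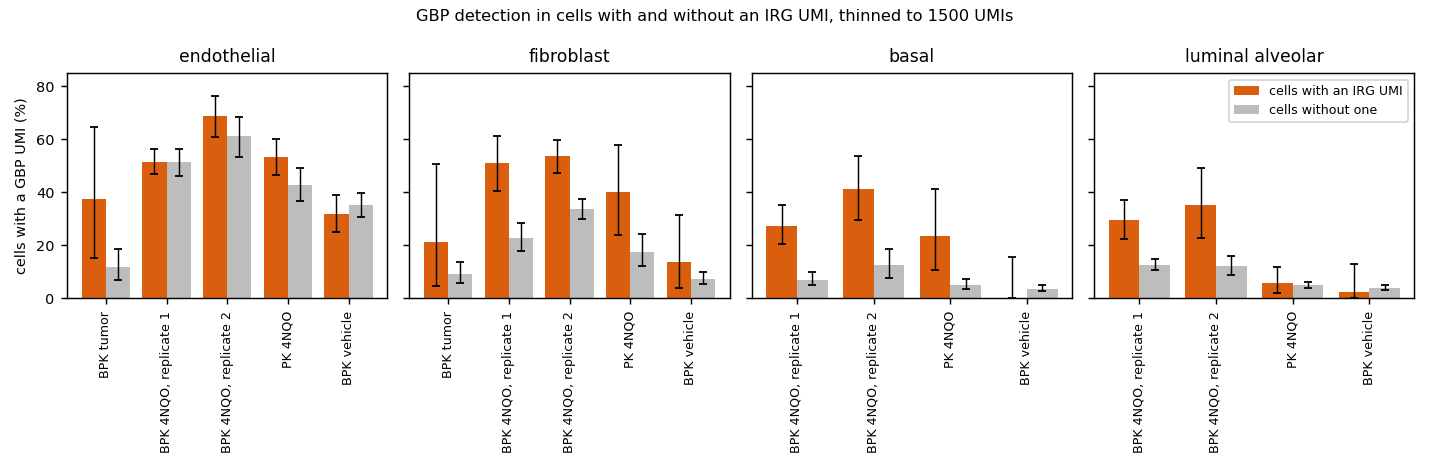
Percent of cells with a GBP UMI among cells with an IRG UMI (orange) and without one (gray) at 1500 UMIs per cell, for 4 classes and the libraries with at least 10 IRG-positive cells. Bars carry exact binomial 95% intervals for counting error only. In basal cells of BPK 4NQO the orange bars stand at 27.3% and 41.4% and the gray bars at 7.07% and 12.4%, whereas in endothelial cells of replicate 1 both stand near 51%.

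At the same depth a UMI of any member was found in 76.8% of 811 and 79.2% of 318 endothelial cells of BPK 4NQO, 78.0% ± 1.72 on average (SD, n = 2), against 54.2% of 629 in BPK vehicle. For basal cells the shares were 29.7% of 617 and 39.9% of 223 in BPK 4NQO, against 5.61% of 1088 in BPK vehicle. In tumor endothelium the share was 21.5% of 149 cells. Up to 7 different members were found in 1 endothelial cell of each BPK 4NQO library, and up to 4 in BPK vehicle. In endothelial cells the shares order the libraries as the summed CPM do, whereas in basal, fibroblast and luminal alveolar cells some libraries change places.

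Levels of the members moved together across cell classes to different degrees. Over 42 profiles of a library and a class the pairwise Pearson correlation of log2(CPM + 1) ran from 0.32 between Iigp1 and Igtp to 0.90 between Gbp5 and Gbp7, with a median of 0.71. Among the other genes with the highest correlation to the mean of the members were Xaf1 (0.91), Gbp9 (0.91), Ifi47 (0.90), Trim12c (0.85), Samd9l (0.84), Cxcl9 (0.84) and Herc6 (0.82). The profiles share libraries, depth and treatment, so these values are descriptions and carry no test.

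Ifng encodes interferon gamma, a ligand of the pathway. Over all kept cells Ifng stood at 0.301 CPM in the tumor, 2.22 and 9.76 CPM in BPK 4NQO, 1.47 CPM in PK 4NQO and 0.193 CPM in BPK vehicle, so it too was highest in the BPK 4NQO libraries. T cells held 58 of 95 and 115 of 246 Ifng UMIs in BPK 4NQO and 19 of 48 in PK 4NQO. Within T cell sums Ifng stood at 200.2 and 206 CPM in BPK 4NQO and 282 CPM in PK 4NQO. Endothelial cells held 0 and 3 Ifng UMIs in BPK 4NQO. No interferon ligand was called in either gland comparison, where at most 1 of the 8 on the list passed the filter in a class.

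Of the transducers, Irf1 is given for its role, chosen after its values were seen. Irf1, a factor that itself drives GBP genes, stood in endothelial cells at 316 and 392.5 CPM in BPK 4NQO, against 452 CPM in BPK vehicle, so that vehicle was the higher. Of 23 interferon receptors and signaling genes on the list 22 were tested in luminal alveolar cells, and 2 were called higher in 4NQO, against 0.37% of all genes, Usp18, which restrains the type I receptor, and Irf7, which amplifies type I interferon. Irf7 stood there at 196 and 104 CPM in BPK 4NQO, against 14.5 CPM in BPK vehicle. Usp18 was also called in basal cells, at 11.8 and 29.9 CPM in BPK 4NQO, against 0.461 CPM in BPK vehicle. By genotype none of these 23 was called by edgeR in any class.

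Of 13 other IRG and GBP genes on the list 11 were in the files. In luminal alveolar cells 4 of 7 tested, Gbp8, Gbp9, Tgtp1 and Ifi47, were called higher in 4NQO, against 0.37% of all genes. In basal cells 2 of 4 were called (0.356% of all genes), in unclassed epithelial cells 2 of 6 (0.532%), in hormone-sensing luminal cells 1 of 6 (0.144%) and in fibroblasts 1 of 6 (0.235%). None was called of 8 in endothelial cells (0.237%), 3 in pericytes (0.0%) and 5 in macrophages (0.0%). The list was chosen with these results known, so nothing is read from these counts. Ifi47, also called Irgd, was called in hormone-sensing luminal, basal and unclassed epithelial cells too, and Gbp9 in basal and unclassed epithelial cells. Gbp8 in luminal alveolar cells also stood higher in BPK 4NQO than in PK 4NQO, at 8.89 and 5.69 CPM, against 0 UMIs (edgeR, adjusted p = 0.000107). Gbp9 in basal cells did so at 18.9 and 31.2 CPM, against 0.542 CPM from 1 UMI (edgeR, adjusted p = 0.0147). Rnf213, a ubiquitin ligase that acts on intracellular bacteria, rose in basal cells in BPK 4NQO against PK 4NQO, at 24.1 and 69.9 CPM, against 3.80 CPM (adjusted p = 0.0495). DESeq2 called none of these 3 by genotype. Gbp8 and Gbp9 overlap Gbp4, so their counts carry the same doubt. With 0 and 1 UMIs in PK 4NQO, these 2 pairs could also pass the filter through BPK 4NQO alone. Nothing is therefore read from their adjusted p-values. Against BPK 4NQO the tumor had 3 of 7 genes of this list called lower in unclassed epithelial cells, Gbp9, Ifi47 and Gm4951 (10.9% of all genes). In fibroblasts 3 of 7 were called lower, Gbp8, Gbp9 and Gm4951 (1.07%), and nothing is read from these counts either.

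In the tumor 6 of 22 tested signaling genes fell in epithelial cells without a subclass, against 10.9% of all genes there. Ifnlr1, a subunit of the type III interferon receptor, stood at 0.63 CPM in the tumor, against 7.85 and 5.88 CPM in BPK 4NQO (adjusted p = 0.00105). Stat2 (adjusted p = 0.0021), Irf9 (0.00684), Irf1 (0.0433) and Irf8 (0.0464) fell as well. Casp4, the inflammasome caspase that senses bacterial lipopolysaccharide, fell to 2.77 CPM in the tumor, against 27.3 and 47.6 CPM in BPK 4NQO (adjusted p = 0.000314). Aim2, a sensor of DNA in the cytosol, rose to 21.7 CPM in the tumor, against 0 and 1.12 CPM in BPK 4NQO (adjusted p = 1.35e-12), and Il1b and Casp1 rose as well, where 8.94% of all genes were called higher. These are again different cells in tumor and gland. Ifnl3, a type III interferon, rose in hormone-sensing luminal cells, with 21 UMIs in the tumor, against 2 and 0 UMIs in BPK 4NQO (adjusted p = 0.00397), and its reads may be shared with the near-identical Ifnl2. Of all genes 0.946% were called higher in that class, 1.04% in luminal alveolar, 0.962% in basal, 1.18% in fibroblast, 0.0% in endothelial and 0.366% in macrophage sums. Ifnl3 could pass the filter through the tumor alone, so nothing is read from its adjusted p-value.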

How the data were processed

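Each file holds raw UMI counts of 27998 genes by barcode. The authors produced these deposited counts with Cell Ranger on mm10, as the submitters' processing notes state; the file headers name version 3.0.2 in PK 4NQO and 5.0.1 elsewhere. Per the labels' protocols lymph nodes were removed and 3′ v2 chemistry was used. How the authors called cells, and from which annotation release, is not given in the sources used here; no deposited barcode had under 500 UMIs. The dose of 4NQO in the labels was not used, because its unit is in doubt.

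Barcodes with under 300 genes or over 20% mitochondrial counts were left out, and doublets scored with scrublet in scanpy 1.11.5 were removed at 0.8% per 1000 barcodes. Cells were gated without clustering. Each marker's UMIs per 10000 were divided by the 90th percentile among cells holding it, capped at 1 and averaged per class; the top class needed at least 2 markers and the next class at most 0.5 of its score. Of 115 listed markers 111 were in the files. The scoring rule was set after the data were seen. Other IRG and GBP genes and the 3 pathway lists came from general knowledge. The members and lists were chosen with earlier results of these data known.

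For each class with at least 30 cells in every compared library, the UMIs of a library's cells were added up and tested in R 4.3.3 with edgeR 4.0.16, which used limma 3.58.1: genes were filtered with filterByExpr, then TMM factors, quasi-likelihood F test, Benjamini-Hochberg adjustment over all genes of a class. The gland comparisons used 1 model of 4 libraries, the tumor comparison 1 model of 5, each with 1 residual degree of freedom, from the BPK 4NQO pair, so each group with 1 library borrows that spread. For T cells BPK vehicle, with 15 cells, was left out of the gland model. SE was taken as the size of the log2 fold change divided by the root of the F statistic. CPM is UMIs per 1000000 of the class. A group at 0 is given as a bound against 3 counts per library, one with 1 to 3 UMIs as a ratio whose exact interval allows for counting error in the low group alone. Only the edgeR test was tried on simulated counts, for endothelial cells and 4NQO against vehicle, with the same set spread for all genes. All 10 members are named; of each list at most 5 called genes per comparison with the largest fold change; likeness used genes with a mean of at least 10 CPM, and some genes that the rule would name are not reported here. Promoter sequences are from RefSeq. Alternatives were DESeq2 1.42.0, RLE factors, no count filter, fewer libraries, each BPK 4NQO library left out, a stricter gate (3 markers, 0.3), doublets kept, at least 1000 UMIs per cell, equal weight per cell and thinning to 1000 UMIs.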

Additional observations from a re-analysis of the deposited data

Results flagged for a closer look

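These values were singled out because a member differed in the opposite direction from the same gene in most other classes under the same comparison. None of these differences between classes was tested, and none of the values passed the test of its own comparison.

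In BPK 4NQO against BPK vehicle, Irgm1 in hormone-sensing luminal cells had a log2 fold change of -0.20, with a mean of 4.86 CPM in BPK 4NQO, against 5.12 CPM in BPK vehicle, while it stood higher in 7 other classes. In BPK 4NQO against PK 4NQO, T cells had a log2 fold change of -0.29 for Gbp3 and -0.67 for Igtp, with means of 59.9 and 73.2 CPM in BPK 4NQO, against 74.3 and 119 CPM in PK 4NQO from 5 and 8 UMIs. In BPK tumor against BPK 4NQO, hormone-sensing luminal cells had log2 fold changes of 1.33 for Gbp3, 0.91 for Gbp2, 1.32 for Irgm1 and 0.70 for Igtp, where each of these genes stood lower in 6 other classes. The tumor gate held 105 such cells, and its keratinocyte markers stood higher than in the glands, as given above.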

How the results depend on the processing

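No called member changed direction under any setting. Against vehicle, 15 of 70 log2 fold changes moved by more than the spread between replicates under the stricter gate and at most 5 of 74 under each other setting that kept both BPK 4NQO libraries. With RLE in place of TMM factors the median of all genes moved by less than 0.1 on the log2 scale in each class. All 7 calls of 4NQO against vehicle were kept with RLE factors, no count filter, only the compared libraries, doublets kept and at least 1000 UMIs; DESeq2 kept 4 of them and the stricter gate 6. Of the 12 tumor calls DESeq2 kept 5 and the stricter gate 8, with Iigp1 in basal cells not tested there, and Irgm2 in fibroblasts was lost in 5 of 7 settings. By genotype only the compared libraries gave 1 call among the members. For the other pathway genes DESeq2 gave 5 calls of 4NQO against vehicle in place of 14, 0 of genotype in place of 3 and 12 of the tumor in place of 19; the cause was not tested. The share of BPK 4NQO endothelial cells with a member UMI was 64.9% when thinned to 1000 UMIs, which leaves fewer UMIs to hold one, and 75.4% with doublets kept, in place of 78.0%. Leaving out BPK 4NQO replicate 1 or 2 leaves 1 library per group, which gives values and no calls; all 71 and 61 pairs with a value kept their sign against vehicle, as did 63 of 64 and 55 of 57 in the tumor comparison and 72 of 77 and 55 of 63 by genotype. No paired analysis was possible because the groups compared share fewer than 2 replicate numbers. Classes under 30 cells, and T cells of vehicle glands and the tumor, were too few to test.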
